A study of Rattus norvegicus with 9 samples.

Results

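Immune cells of the tibial osteotomy site were compared between 1 library from shock-wave treated rats (TOE) and 1 library from rats with the osteotomy alone (TO), both taken 24 h after the session of day 4. The members were cells in which 200 or more genes were found and mitochondrial UMIs did not exceed 20%, and whose marker UMIs placed them among neutrophils, B-lineage cells, monocytes or macrophages. These were 11192 of 14103 cells in TO and 11016 of 12329 cells in TOE, or 22208 of the 26432 cells kept in the pair. The 8 libraries analysed held 114226 cells. A UMI is a molecular tag that counts each captured RNA molecule once.

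All rats were male Sprague-Dawley rats of 6 to 8 weeks, and both groups carried a 3-mm circular osteotomy of the proximal tibia and a 4-mm skin wound on the foot. In TOE the osteotomy site also received radial extracorporeal shock waves (rESWT) through the skin on days 2 and 4, and in TO it did not. The series names 9 rats for 9 samples. With 1 library on each side there is no replicate, no test was possible, and the treatment cannot be told apart from the animal, the dissection or the library. Ratios are given with exact 95% intervals that cover counting error only, and the other 6 libraries (TO at 0 and 4 h of day 2 and 4 h of day 4, TOE at 4 and 24 h of day 2 and 4 h of day 4) show how far a value moved elsewhere in the series.

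The libraries were of similar depth. TO had 122946977 UMIs in 14518 barcodes and a median of 4766 UMIs in a cell kept, and TOE had 95954800 UMIs in 12451 barcodes and a median of 4937. Any 2 of the 8 libraries shared between 0.263% and 0.779% of their barcodes. The pair differed in its red cells before any immune cell was considered. TO held 573 erythroid cells and TOE held 0 of 12329, which allows a share of up to 0.0243%. The erythroid markers together reached 848 to 1456 CPM (UMIs per 1000000 UMIs of the same cells) in the 9 larger immune groups of TO, 16.2 to 43.6 CPM in those of TOE and 392 to 2601 CPM in the other 6 libraries. Mitochondrial messenger RNA took 1.33% to 3.66% of the UMIs of these groups in TO and 0.745% to 2.79% in TOE. Mitochondrial ribosomal RNA was higher in TOE in each of them, where it took 0.493% to 2.25% of the UMIs, against 0.272% to 1.59% for TO. The part that these differences have in the results was not tested.

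Neutrophils mature in the marrow through stages that can be read from their granules. The earliest make the proteases of the primary granules, later precursors make defensins, immature cells fill secondary granules with antimicrobial proteins such as cathelicidin (Camp) and neutrophilic granule protein (Ngp), and mature cells carry the receptors for chemokines and formyl peptides that guide them out to injured tissue. B cells assemble their antigen receptor in steps. Pro-B cells join the heavy chain with the help of the terminal transferase Dntt, large pre-B cells divide, small pre-B cells stop dividing and recombine the light chain with Rag1 and Rag2, and immature and mature B cells display the finished receptor. Monocytes leave the marrow for wounds, and macrophages with complement C1q and scavenger receptors reside in the tissue.

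The share of neutrophils was higher in TOE and the shares of monocytes and macrophages were lower. The 4 neutrophil groups together made up 15.5% of all cells kept in TO (2187 cells) and 26.9% in TOE (3315 cells), a ratio of 1.73. The other 6 libraries lay between 8.08% and 15.5%, so the value of TOE was above all of them. The 5 B-lineage groups together changed little, from 53.5% to 56.7%.

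Of the neutrophil stages the intermediate ones had the highest ratios of shares over all cells. Within the lineage alone immature cells took a larger part in TOE, while defensin precursors were near alike. Immature neutrophils made up 4.55% of the cells of TO (642 cells) and 11.2% of those of TOE (1382 cells), a ratio of 2.46 with an interval of 2.24 to 2.71. Mature neutrophils made up 8.52% (1202 cells) and 12.6% (1554 cells), a ratio of 1.48 (1.37 to 1.60). In both groups TOE was above the other 6 libraries, which reached 5.87% and 6.52%. The mature neutrophils of TO were above those libraries too. Defensin precursors made up 1.14% of TO and 2.13% of TOE, a ratio of 1.86 (1.52 to 2.28). Here it was TO that lay outside the other libraries, all of which held more. Granule protease precursors, the earliest stage, made up 1.29% of TO and 0.949% of TOE, a ratio of 0.735 (0.578 to 0.933), which became 0.853 (0.665 to 1.09) when each cell was thinned to 2000 UMIs. The share of TO was above the 1.04% that the other libraries reached, and that of TOE was not. Monocyte markers summed to 198 CPM in these cells of TO and 263 CPM in those of TOE, more than in the other neutrophil groups. Whether all of these precursors belong to the neutrophil lineage was not tested. Counted within the neutrophils alone, the earliest stage took 8.32% in TO and 3.53% in TOE, defensin precursors 7.36% and 7.90%, immature cells 29.4% and 41.7%, and mature cells 55.0% and 46.9%.

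In the B lineage the dividing and the small pre-B cells were more frequent in TOE. Cycling B-lineage cells made up 11.9% of TO and 15.2% of TOE, a ratio of 1.28 (1.2 to 1.37), and small pre-B cells 15.5% and 21.1%, a ratio of 1.36 (1.29 to 1.44). Both cycling shares lay inside the range of the other 6 libraries, 6.95% to 17.9%. The small pre-B cells of TO were just under and those of TOE just above their range of 15.6% to 21.0%. These are shares of all cells kept, unplaced and erythroid cells included, and ranges over placed cells alone were not computed. Pro-B cells (301 and 243 cells) and immature or mature B cells (1370 and 1128 cells) had ratios of 0.923 (0.777 to 1.10) and 0.942 (0.870 to 1.02), whose intervals include 1. For immature or mature B cells that changed with the processing, since the ratio was 0.777 (0.718 to 0.839) with groups from Leiden clusters and 0.861 (0.795 to 0.932) over placed cells other than erythroid. A further 2020 B-lineage cells of TO and 1146 of TOE carried no stage marker, 14.3% and 9.30% of the cells, a ratio of 0.649 (0.603 to 0.698). Rag1 and Rag2 helped to place small pre-B cells, and Rag2 was higher in those of TOE, so a shift of cells between the unstaged and the small pre-B group cannot be told apart from a change in number. With groups from Leiden clusters the ratio of small pre-B cells was 1.11.

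Monocytes made up 9.24% of TO (1303 cells) and 5.57% of TOE (687 cells), a ratio of 0.603 (0.549 to 0.662), with 9.76% to 19.8% in the other libraries. Both values were under that range, and TOE was the lower. Markers that helped to place monocytes differed in the pair, with Cd14 and Vcan lower and Ccr2 and Fn1 higher in TOE. A shift of cells between monocytes and other or unplaced cells therefore cannot be told apart from a change in number. Macrophages numbered 153 in TO, 1.08% of its cells, and 18 in TOE, 0.146%, a ratio of 0.135 (0.0777 to 0.220), with 0.661% to 1.39% elsewhere. Too few macrophages remained in TOE to count genes in them, so only their markers and 1 chemokine are given.

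**Figure D1:**
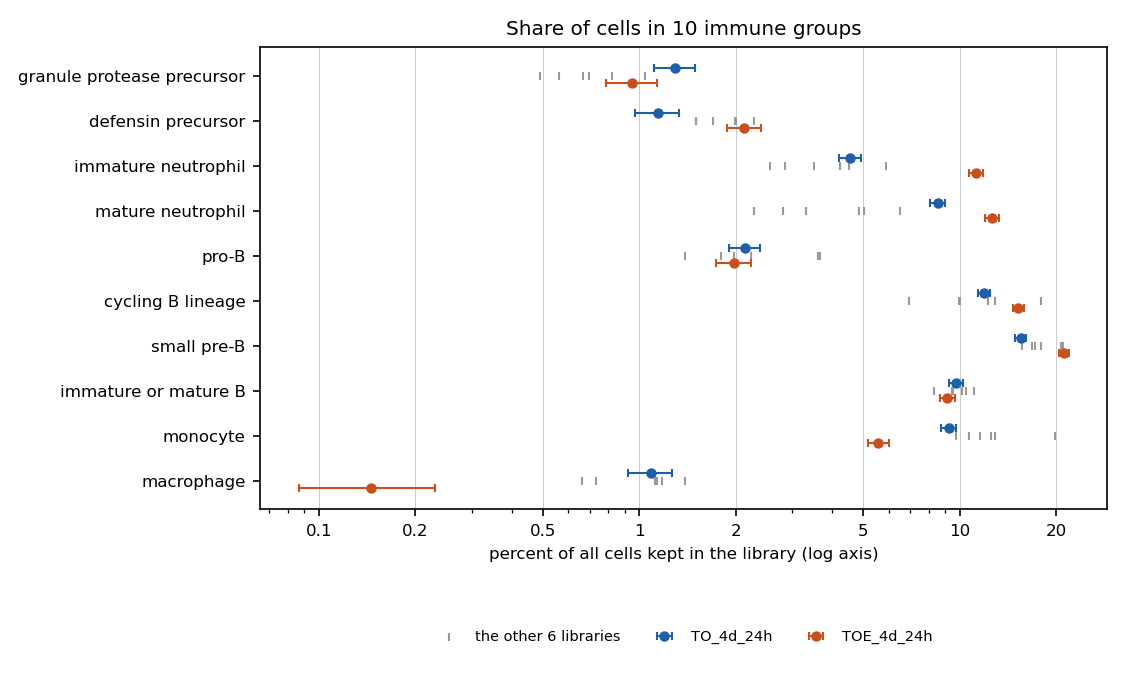
Share of all cells kept (horizontal, percent, log axis) for 10 immune groups in TO (blue) and TOE (orange) 24 h after the session of day 4, with exact 95% intervals of the counts, and in the other 6 libraries (grey ticks). Immature and mature neutrophils of TOE, at 11.2% and 12.6%, lay to the right of every other library, and monocytes and macrophages of TOE, at 5.57% and 0.146%, to the left.

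The libraries at 4 h of day 2 and 4 h of day 4 carry the same contrast at other times. The ratios of immature and mature neutrophils pointed the other way in both of those pairs. Mature neutrophils had ratios of 0.453 and 0.432 in them, against 1.48 at 24 h of day 4, and immature neutrophils 0.674 and 0.771, against 2.46. Monocytes had ratios of 0.857 at 4 h of day 2 and 1.71 at 4 h of day 4, against 0.603. Each pair is again 1 library a side, and the differences between the pairs were not tested.

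**Figure D2:**
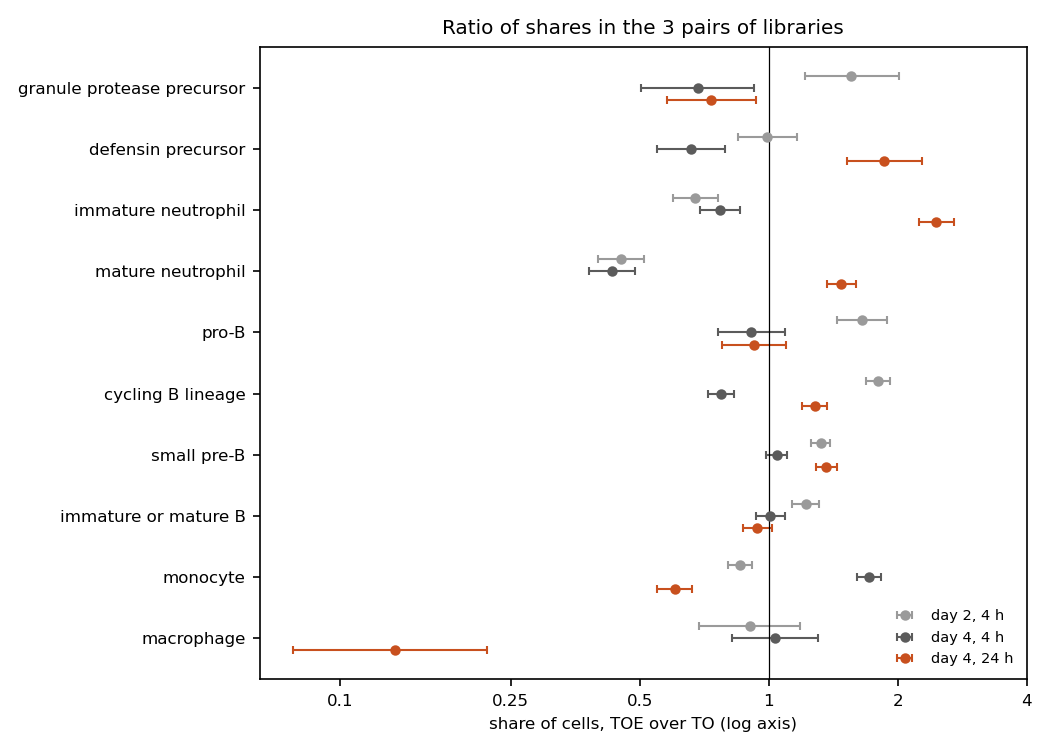
Share of cells in TOE divided by the share in TO (horizontal, log axis) for 10 immune groups at 4 h of day 2 (light grey), 4 h of day 4 (dark grey) and 24 h of day 4 (orange), with exact 95% intervals of the counts. The 3 orange neutrophil points from defensin precursor to mature lie right of 1, and the immature and mature grey points lie left of it.

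Gene levels were then compared within 9 groups as CPM of the UMIs summed over the cells of a group. A gene counted as measured with at least 50 UMIs over the pair and as called with at least a 2-fold difference. The clusters of cells built from all genes were often made up mostly of 1 library. In 6 of the 9 groups (immature and mature neutrophils, cycling B-lineage, small pre-B and immature or mature B cells, and monocytes) the cluster that held most cells of TO was not the one that held the largest number of TOE cells. For monocytes 79.4% of the TO cells were in 1 cluster and 79.5% of the TOE cells in another. The overlap of the distributions of both libraries over the clusters was 12.0% to 31.5% in these 6 groups, 24.3% in monocytes among them, against 83.3% in defensin precursors, 84.5% in pro-B cells and 98.9% in granule protease precursors. The median log2 ratio of all genes measured in a group was slightly above 0 in all 9, between 0.05 and 0.23. More genes were called higher than lower in every group. Centring each group on its median moved the share of called genes that were higher from 64.3% to 49.9% in immature neutrophils, from 69.5% to 51.1% in mature neutrophils, from 67.3% to 55.4% in small pre-B cells, from 66.1% to 56.1% in immature or mature B cells, and in monocytes from 65.6% to 56.2%.

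A difference seen in all 9 groups was in listed target and feedback genes of NF-kB. This transcription factor turns on inflammatory genes after infection or injury and at the same time induces its own inhibitors. Of 20 listed target and feedback genes, none was at least 2-fold higher in TOE in any of the 9 groups. In mature neutrophils 16 of 19 measured members were at least 2-fold lower, with a median log2 ratio of -1.78 against 0.23 for all genes of the group, where 7.85% of 9176 genes were called lower and 17.9% higher. In small pre-B cells 14 of 19 were lower with a median of -1.54, against 8.08% lower and 16.6% higher of 11689 genes, and in monocytes 13 of 20 with a median of -1.41, against 5.9% lower and 11.3% higher of 12583 genes.

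The same list stood at 13 of 19 lower in immature neutrophils (median -1.30, background 6.67% lower and 12.0% higher of 9324 genes), 13 of 19 in pro-B cells (-1.53, 4.1% and 8.9% of 9752), 14 of 19 in cycling B-lineage cells (-1.76, 5.93% and 12.4% of 13753) and 15 of 19 in immature or mature B cells (-1.52, 7.97% and 15.5% of 10196). The precursors of neutrophils had smaller counts, 9 of 17 in defensin precursors (-1.08, 3.57% and 7.7% of 7143) and 6 of 16 in granule protease precursors (-0.70, 1.31% and 5.59% of 7531). The list was written with earlier results of these data known and is no independent evidence of its direction. In the pair at 4 h of day 2 its median was -0.69 in mature neutrophils, -0.72 in small pre-B cells and -0.55 in monocytes. At 4 h of day 4 it was -0.26, -0.02 and -0.19. Only defensin precursors at 4 h of day 2 (0.04) and immature neutrophils at 4 h of day 4 (0.27) had a positive median in those pairs. The differences between the pairs were not tested.

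Nfkbia encodes the inhibitor that holds NF-kB in the cytoplasm and is itself one of its quickest targets. Its level was 1738 CPM in the mature neutrophils of TO and 331 CPM in those of TOE, 5.26-fold lower (5.03 to 5.50), while the other 6 libraries held 1242 to 3459 CPM. It was 964 and 370 CPM in monocytes, 487 and 133 CPM in small pre-B cells and 328 and 83.6 CPM in pro-B cells. In each of these 4 groups TOE was the lowest of the 8 libraries, a place it held for 17.0% to 27.0% of all genes measured in the 9 groups, while it was the highest for 11.3% to 32.6%. Cd83, a surface protein of activated B and antigen-presenting cells, was 300 CPM in the small pre-B cells of TO and 18.3 CPM in those of TOE, 16.4-fold lower (14.2 to 19.1), though here the other libraries spread widely, from 71.2 to 370 CPM. In granule protease precursors Cd83 had 59 UMIs in TO and 0 in TOE.

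The survival gene Bcl2a1 was 504 and 85.5 CPM in mature neutrophils and 843 and 121 CPM in monocytes. The antioxidant enzyme Sod2 was 3682 and 988 CPM in mature neutrophils and 724 and 235 CPM in monocytes. Zc3h12a, a nuclease that degrades cytokine messages, was 372 and 42.7 CPM in mature neutrophils. At the upper end of the list stood Cyld, a deubiquitinase that restrains the pathway, with a log2 ratio of -0.03 in mature neutrophils and -0.02 in small pre-B cells, and Nfkbiz, a nuclear member of the inhibitor family, with 0.04 in monocytes.

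The DNA just upstream of 3 of these genes shows the element that names the family. In the 250 bases before the start of transcription, read on both strands, a match to the NF-kB consensus was present in 1901 of 27457 rat genes (6.92%), in 7 of the 17 genes of the NF-kB list that have such a window (41.2%) and in 6 of 15 genes of the inflammatory list (40%). Since the list holds known targets, that share follows from its choice. The windows of Nfkbia and of the neighbouring chemokine genes Cxcl1 and Cxcl2 are shown because these 3 genes differed widely and hold the match, with the matching bases in capitals. They are taken from RefSeq on the rat build GRCr8, all on the minus strand and written 5′ to 3′, at chr6:78597073-78597322, chr14:17479322-17479571 and chr14:17467256-17467505. In Cxcl1 and Cxcl2 a pair of overlapping matches forms 1 run of capitals. A match is a description of the letters and says nothing of binding in these cells.
Nfkbia: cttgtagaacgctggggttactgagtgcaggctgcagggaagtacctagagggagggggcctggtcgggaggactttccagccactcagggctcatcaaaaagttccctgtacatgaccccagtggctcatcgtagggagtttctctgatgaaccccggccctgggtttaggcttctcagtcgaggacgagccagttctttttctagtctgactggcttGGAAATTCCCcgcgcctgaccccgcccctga
Cxcl1: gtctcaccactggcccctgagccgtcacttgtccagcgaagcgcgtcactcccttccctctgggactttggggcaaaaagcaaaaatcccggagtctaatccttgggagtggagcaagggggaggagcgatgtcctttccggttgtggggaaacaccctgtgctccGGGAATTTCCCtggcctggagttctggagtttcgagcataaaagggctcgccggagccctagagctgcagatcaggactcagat
Cxcl2: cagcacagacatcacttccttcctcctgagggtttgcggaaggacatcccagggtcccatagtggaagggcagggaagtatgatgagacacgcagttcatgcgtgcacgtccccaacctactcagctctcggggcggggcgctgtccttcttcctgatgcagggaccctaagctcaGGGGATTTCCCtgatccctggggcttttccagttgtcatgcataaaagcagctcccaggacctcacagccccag

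Inflammatory cytokines and chemokines were lower as well, with medians below 0 in each of the 9 groups. Of 22 listed members 15 were measured in mature neutrophils, 9 were at least 2-fold lower and none higher, with a median log2 ratio of -2.04. In monocytes all 22 were measured, 15 were lower and 2 higher, with a median of -1.89. In the remaining groups the counts were 5 lower of 10 in immature neutrophils, 4 of 8 in defensin precursors, 3 of 8 with 2 higher in granule protease precursors, 3 of 6 in pro-B, 11 of 18 in cycling B-lineage, 6 of 11 in small pre-B and 5 of 8 in immature or mature B cells. Of all genes measured 1.31% to 8.08% were called lower and 5.59% to 17.9% higher in the 9 groups. The medians of these groups ran from -1.77 to -1.15, except in granule protease precursors, where the median was -0.06.

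In mature neutrophils the chemokine Cxcl2, which recruits further neutrophils through Cxcr2, was 1174 CPM in TO and 81.0 CPM in TOE, 14.5-fold lower (13.3 to 15.8). The other 6 libraries held 998 to 2493 CPM, so TO was within their range and TOE below it. The monocyte attractant Ccl2 was 202 and 4.87 CPM, the largest fall of this list in these cells, and the macrophage growth factor Csf1 was 125 and 5.39 CPM. Interleukin 1 beta (Il1b) was 390 and 70.1 CPM, and the inflammasome sensor Nlrp3 567 and 138 CPM. Ccl6, a chemokine of myeloid cells, stood at the upper end of the list with a log2 ratio of 0.21.

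**Figure D3:**
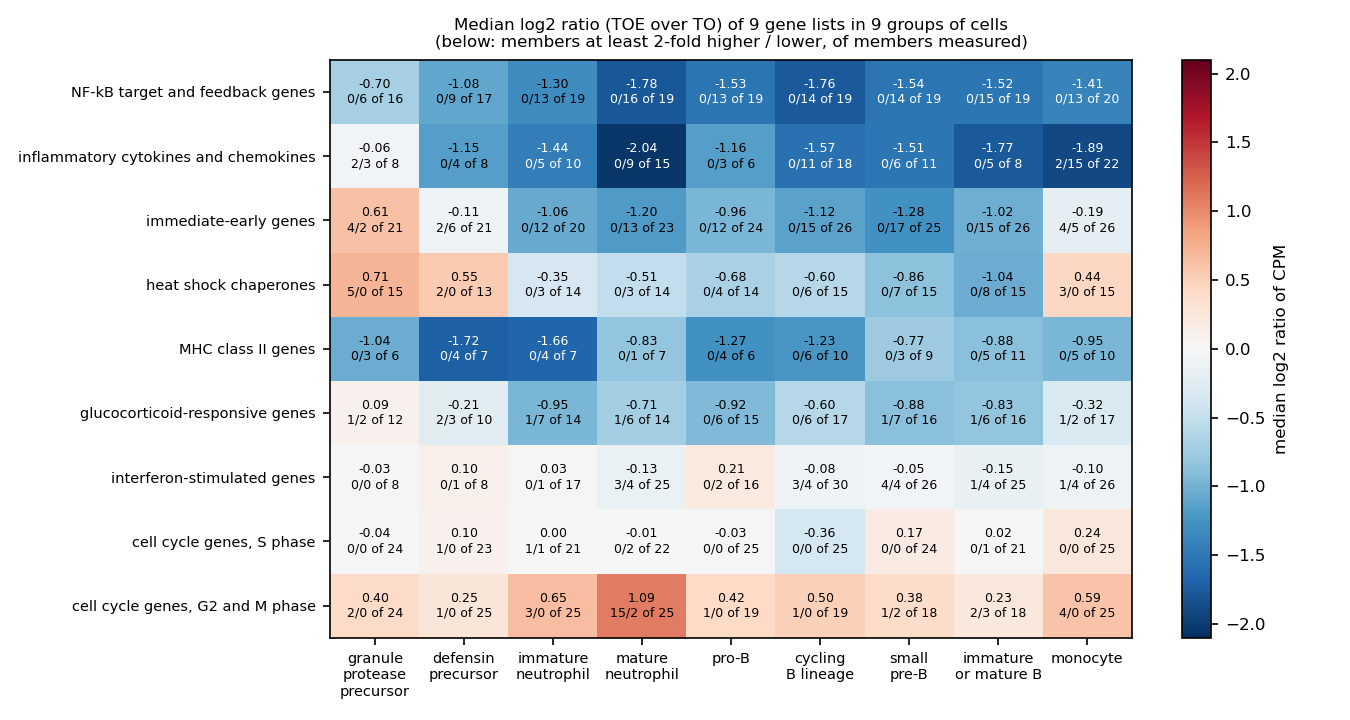
Median log2 ratio of TOE over TO (colour and upper number) of 9 gene lists (rows) in 9 groups of cells (columns), with the members at least 2-fold higher and lower of those measured in the lower line of each cell. The NF-kB row is negative throughout, from -1.78 to -0.70, while the heat shock row is positive in granule protease precursors, defensin precursors and monocytes and negative in the other 6 groups.

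Genes of the first minutes of a stimulus and the heat shock chaperones split the groups. Immediate-early genes, which answer growth factors, stress and handling within minutes, were lower in most groups, with 13 of 23 measured members at least 2-fold lower in mature neutrophils, 12 of 20 in immature neutrophils, 12 of 24 in pro-B, 15 of 26 in cycling B-lineage, 17 of 25 in small pre-B and 15 of 26 in immature or mature B cells, and none higher in those 6 groups, where 4.1% to 8.08% of all genes were called lower. In monocytes 4 of 26 were higher and 5 lower, against 11.3% and 5.9% of all genes. In granule protease precursors 4 of 21 were higher and 2 lower, against 5.59% and 1.31%. Defensin precursors had 2 higher and 6 lower of 21, against 7.7% and 3.57%. The positive median of granule protease precursors, 0.61, became -0.062 when levels were averaged over cells instead of summed. Whether the groups differ from each other in these ratios was not tested.

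Fos, a subunit of the AP-1 transcription factor, was 338 CPM in the monocytes of TO and 1476 CPM in those of TOE, 4.37-fold higher (4.25 to 4.48), above the 393 to 841 CPM of the other libraries. Egr1, an early growth response factor, was 58.3 and 264 CPM in monocytes, 66.8 and 353 CPM in granule protease precursors and 116 and 798 CPM in defensin precursors. In the same cells the related Egr3 was 11.7 and 2.13 CPM in monocytes, and Klf4, a factor of monocyte differentiation, was lower in all 9 groups, with 366 and 162 CPM in monocytes and 146 and 17.4 CPM in small pre-B cells.

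Heat shock chaperones refold proteins damaged by heat or oxidation. Their medians were above 0 in granule protease precursors (0.71, with 5 of 15 at least 2-fold higher against 5.59% of all genes), defensin precursors (0.55, 2 of 13 against 7.7%) and monocytes (0.44, 3 of 15 against 11.3%), with none lower, so most members did not pass 2-fold. Hsph1, a large chaperone of the Hsp110 family, was 449 and 2697 CPM in monocytes, 6.00-fold higher (5.87 to 6.14), with 267 to 1243 CPM in the other libraries. Hspa1a, the inducible Hsp70, was 1514 and 3137 CPM in monocytes, although its reads are shared with the near-identical Hspa1b. Hspb1 showed the largest ratio of the list in granule protease precursors, with 10 UMIs in TO and 189 in TOE. It was found in fewer than 10% of these cells in TOE, so its rise is not one of the whole group.

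In immature or mature B cells the median was below 0, with 8 of 15 chaperones at least 2-fold lower and a median of -1.04, as in small pre-B cells with 7 of 15 and -0.86, cycling B-lineage cells with 6 of 15 and -0.60, and pro-B cells with 4 of 14 and -0.68. In immature and mature neutrophils 3 of 14 were lower, with medians of -0.35 and -0.51. The shares of all genes called lower were 4.1% to 8.08% in these 6 groups. Hsp90ab1, the constitutive Hsp90, was 4217 and 1044 CPM in small pre-B cells, 4.04-fold lower (3.95 to 4.12).

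Class II molecules, which present peptides to T cells, were lower in each of the 9 groups by their median. The counts were 5 of 11 in immature or mature B cells (median -0.88), where these genes are most abundant, and 5 of 10 in monocytes (-0.95). In immature or mature B cells the alpha chain RT1-Da was 1874 and 780 CPM, and the invariant chain Cd74 was 4541 and 2459 CPM. Their activator Ciita went the other way, from 32.4 to 64.5 CPM. In monocytes RT1-Da was 349 and 128 CPM. Reads of the RT1 genes can be shared among near-identical copies. The counts of the remaining groups were 3 of 6 in granule protease precursors, 4 of 7 in defensin precursors, 4 of 7 in immature neutrophils, 1 of 7 in mature neutrophils, 4 of 6 in pro-B, 6 of 10 in cycling B-lineage and 3 of 9 in small pre-B cells, with no member higher in any of them. Of all genes 1.31% to 8.08% were called lower in the 9 groups, and the 1 of 7 in mature neutrophils is near their 7.85%. In granule protease precursors the median of -1.04 became 0.16 over the 3 genes with at least 200 UMIs.

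Among the other lists, interferon-stimulated genes had medians between -0.15 and 0.21 in the 9 groups, with 12 of 181 measurements at least 2-fold higher and 24 lower. Of all genes 5.59% to 17.9% were called higher in the 9 groups and 1.31% to 8.08% lower. Genes of glycolysis and the hypoxia response had medians between -0.51 and 0.13, and genes of phagocytosis, complement and scavenging between -0.63 and -0.08. Genes of the glucocorticoid response were lower by their medians in 8 of 9 groups, from -0.95 to -0.21, and 0.09 in granule protease precursors, with 45 of 131 measurements at least 2-fold lower and 8 higher. Clock genes had medians below 0 in 8 of 9 groups, down to -0.89, with 21 of 91 measurements lower and 5 higher. In small pre-B cells the repressor Nr1d2 was 75.4 and 17.6 CPM and the activator Bmal1 5.54 and 12.1 CPM.

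In mature neutrophils most effector genes that did not define the groups stayed within 2-fold in the pair, while inflammatory genes were lower. S100a8 and S100a9, the calcium-binding proteins that fill their cytoplasm, were 68046 and 77927 CPM and 149150 and 151420 CPM. Cathelicidin (Camp) was 4429 and 4515 CPM. S100a8, S100a9 and Camp took part in placing the cells, so their levels are a description. Of 16 measured effector genes that did not define the groups 1 was at least 2-fold higher and 2 were lower, where 17.9% and 7.85% of all genes were. The 3 were Mmp25, a membrane protease, with a log2 ratio of 1.19, and on the lower side Slpi, an inhibitor of neutrophil elastase, at 2354 and 517 CPM, and annexin A1 (Anxa1), a mediator that ends neutrophil recruitment, at 9073 and 3425 CPM. For both of these TOE was below all of the other libraries, which held 1363 to 1892 CPM and 5656 to 9231 CPM.

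Some receptors that mark the stage were higher and others lower, which is given as a description since they placed the cells. The formyl peptide receptor Fpr1 was 169 and 393 CPM, 2.33-fold higher (2.15 to 2.52), the chemokine receptor Cxcr2 132 and 219 CPM and the growth factor receptor Csf3r 180 and 287 CPM. Clec4e and Trem1, receptors that amplify inflammation, were lower at 519 and 198 CPM and at 520 and 275 CPM. Among receptors of retention and egress that were not used for placing, 2 of 11 were lower and none higher, with the same shares of all genes to set beside them. The lowest was Itgb2, with a log2 ratio of -1.53, and 6 of the 11 had a ratio above 0. Cxcr4, which holds cells in the marrow, did not pass 2-fold, at 262 and 145 CPM.

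Nos2, the inducible nitric oxide synthase that the study used as a marker of the M1 state of macrophages, was most abundant here. It was 1929 CPM in TO and 307 CPM in TOE, 6.29-fold lower (6.01 to 6.59), with 1348 to 3057 CPM in the other libraries. In immature neutrophils it was 355 and 43.9 CPM and in monocytes 77.0 and 12.4 CPM. All 3 values of TOE were the lowest of the 8 libraries, as were 18.6% of all genes in mature neutrophils, 21.2% in immature neutrophils and 18.7% in monocytes. Arg1, its counterpart for the M2 state, had 4 and 23 UMIs in mature neutrophils.

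Largest rises and falls from here on follow the rule for named genes. It ranks genes found in at least 10% of cells by the interval bound of their ratio, so other genes can have larger ratios. In mature neutrophils the 3 largest rises by this rule were Dlgap2, a scaffold gene of synapses, at 1.86 and 99.6 CPM, resistin (Retn), a secreted protein of rat and human myeloid cells, at 2.90 and 91.7 CPM, and Skap1, an adaptor of lymphocytes, at 5.80 and 96.9 CPM. For Retn it was TO that stood apart, since the other libraries held 21.5 to 138 CPM. For Dlgap2 it was TOE, with 0.924 to 16.4 CPM elsewhere. Retn was also 112 and 652 CPM in immature neutrophils and 0.829 and 72.3 CPM in monocytes, where it was the largest rise, and TOE was above the 1.08 to 40.4 CPM of the other libraries. Dlgap2, Skap1 and Hmgb2l1 were the 3 largest rises of immature neutrophils, with Dlgap2 at 1.63 and 93.3 CPM.

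Genes of mitosis were higher in mature neutrophils, cells that no longer divide. Of 25 measured members of the G2 and M list 15 were at least 2-fold higher and 2 lower, with a median of 1.09, against 17.9% and 7.85% of all genes and a median of 0.23 over them. The levels were low throughout, such as topoisomerase Top2a at 29.6 and 85.9 CPM and the cyclin Ccnb1 at 7.25 and 15.5 CPM, compared with 947 and 1247 CPM for Top2a in cycling B-lineage cells. The other libraries held 45.0 to 150 CPM of Top2a in mature neutrophils, so TOE was inside their range and TO below it. In the other groups the medians of the list were between 0.23 and 0.65, with at most 4 members higher and 3 lower. Monocytes had the 4 higher members, of 25, where 11.3% of all genes were called higher. Genes of S phase had medians between -0.36 and 0.24, with 2 of 210 measurements higher and 4 lower, where 5.59% to 17.9% and 1.31% to 8.08% of all genes were, by group. B-lineage markers summed to 909 CPM in the mature neutrophils of TO and 1595 CPM in those of TOE. The part of RNA from other cells in the mitotic genes was not tested.

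The granule genes that placed the immature neutrophils are given as a description. Camp was 27357 and 28965 CPM, Ngp 18350 and 15760 CPM and lipocalin 2 (Lcn2), which withholds iron from bacteria, 4586 and 4462 CPM. Their 3 largest falls by the rule for named genes were Cxcl2 at 74.8 and 3.24 CPM, Ccl3, a chemokine for monocytes, at 208 and 10.7 CPM, and the interferon-induced Ifi27l2b at 576 and 40.8 CPM. Csf1, which was not among them, had the lowest log2 ratio of the inflammatory list, -5.55. For Ifi27l2b the other libraries ranged from 6.01 to 641 CPM, so the pair did not leave their range.

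The protease genes placed the granule protease precursors, so their levels, too, are a description. Myeloperoxidase (Mpo) was 3675 and 3806 CPM, proteinase 3 (Prtn3) 5578 and 5939 CPM, cathepsin G (Ctsg) 13326 and 12132 CPM and neutrophil elastase (Elane) 13000 and 8869 CPM. By the rule for named genes their largest rises were Hhat (1 and 71 UMIs), Rn7sl1 and Rhno1, and their largest falls Cd83, the carbonic anhydrase Car2 at 65.2 and 5.64 CPM and Ccl2 at 41.8 and 3.29 CPM. In defensin precursors the defensin genes RatNP-3b and Np4, whose copies resemble each other so that reads may be shared, were 182910 and 171070 CPM and 68724 and 72225 CPM. The proteases of the earlier stage were lower there, with Elane at 888 and 174 CPM and Mpo at 1066 and 399 CPM, both inside the range of the other libraries (164 to 860 CPM and 360 to 900 CPM) in TOE and above it in TO.

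Monocytes of TOE carried less of Cd14, the coreceptor for bacterial lipopolysaccharide by which the study annotated them. Cd14 was 253 CPM in TO and 31.5 CPM in TOE, 8.03-fold lower (7.24 to 8.93), with 221 to 442 CPM in the other libraries. Of their other markers versican (Vcan) was lower as well, at 585 and 366 CPM. The colony-stimulating factor receptor Csf1r was alike in both at 147 and 144 CPM, while others were higher in TOE, with Mpeg1 at 169 and 192 CPM, the chemokine receptor Ccr2 240 and 391 CPM and fibronectin (Fn1) 1188 and 1874 CPM. These markers took part in placing the cells, so their levels are a description.

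Monocyte chemokines were among the lowest values of the comparison. Ccl2 was 503 and 57.6 CPM, 8.74-fold lower (8.10 to 9.45), Ccl7 106 and 9.74 CPM, Cxcl1 187 and 18.7 CPM and Cxcl10 30.7 and 1.72 CPM. For Ccl2, Ccl7 and Cxcl1 TOE lay below all of the other libraries. Il1b was 194 and 23.3 CPM and tumour necrosis factor (Tnf) 43.9 and 9.42 CPM. The 2 members that were higher were oncostatin M (Osm), a cytokine of the interleukin 6 family, at 25.3 and 110 CPM, and Il6 with 35 and 98 UMIs, or 1.53 and 8.02 CPM, with 6.49 to 30.1 CPM in the other libraries.

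Of genes tied to macrophage polarization, 4 of 11 measured M1 genes were at least 2-fold lower and 1 higher in monocytes (median -0.30), and 2 of 14 M2 genes were lower and none higher (median -0.30), where 5.9% of all genes were called lower and 11.3% higher. Thrombospondin 1 (Thbs1), an adhesive glycoprotein that the study followed as vesicle cargo, was 45.4 and 7.78 CPM in monocytes and 101 and 16.8 CPM in mature neutrophils, below the other libraries in both. The angiogenic factor Vegfa was 65.9 and 13.5 CPM in monocytes. Arg1 and the mannose receptor Mrc1 were 9.21 and 13.3 CPM and 4.89 and 5.32 CPM. Of the small vesicle markers named by the study the tetraspanin Cd63 was 244 and 87.9 CPM in monocytes, the secretion factor Rab27a 76.2 and 161 CPM and Tsg101 68.0 and 62.7 CPM. In mature neutrophils 1 of 7 was at least 2-fold higher, no more than the 17.9% of all genes, namely Rab27a at 234 and 484 CPM, and Cd63 was 454 and 332 CPM. A further list held P2rx7, Mapk14 and Thbs1, which the study names, and Panx1, Nt5e and Entpd1, which were added here. In mature neutrophils 2 of 4 measured members were at least 2-fold higher and 1 lower, where 17.9% and 7.85% of all genes were. In monocytes 1 of 5, Entpd1, was higher and 1 lower, where 11.3% and 5.9% were. Over the 9 groups the medians were 0.43 to 1.61, with 15 of 33 measurements higher and 4 lower. Of all genes 5.59% to 17.9% were called higher and 1.31% to 8.08% lower, by group. The p38 kinase Mapk14 was 83.7 and 206 CPM in mature neutrophils and 76.7 and 114 CPM in monocytes, and the lower member was Thbs1 in both.

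Some neutrophil transcripts were higher in small pre-B cells and monocytes. In small pre-B cells, which do not make them, S100a8 was 471 and 1380 CPM and Camp 103 and 315 CPM, and 10 of 22 neutrophil effector genes, markers of neutrophils included, were at least 2-fold higher and 3 lower, where 16.6% and 8.08% of all genes were. In monocytes 7 of 24 were higher and 2 lower, where 11.3% and 5.9% of all genes were, and the 6 markers of any neutrophil stage summed to 2410 CPM in TO and 4592 CPM in TOE. The secondary granule markers of immature neutrophils were 3171 and 5531 CPM in monocytes and the primary granule markers 1097 and 1216 CPM. The markers of mature neutrophils did not move that way there, at 242 and 212 CPM, and in macrophages the markers of any stage summed to 2998 and 2471 CPM. The higher values move with the higher share of neutrophils in TOE, and the part of free RNA in them was not tested.

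The markers that placed the macrophages are given as a description, and all values of TOE rest on 18 cells. C1qa was 5415 and 4283 CPM, C1qb 3602 and 2646 CPM, the haemoglobin scavenger receptor Cd163 424 and 409 CPM, the iron exporter Slc40a1 354 and 319 CPM, Mrc1 516 and 271 CPM and the engulfment receptor Mertk 128 and 218 CPM. Several marker sets of other cells were higher in the macrophages of TOE, with B-lineage markers at 741 and 1727 CPM, cycling markers at 177 and 1350 CPM and secondary granule markers at 311 and 1631 CPM. Cxcl2 was 1450 and 138 CPM, with 26 UMIs in TOE. The part of other cells in these values was not tested.

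Genes of antigen receptor assembly had medians above 0 in all 9 groups, neutrophils and monocytes included, from 0.29 to 0.92, so this was not particular to the B lineage, and few members passed 2-fold. In small pre-B cells 3 of 11 measured members that did not define the groups were at least 2-fold higher and none lower, with a median of 0.87 against 0.14 for all genes and a background of 16.6% called higher. DNA ligase 4 (Lig4), which seals the broken ends, was 422 and 1157 CPM, 2.75-fold higher (2.65 to 2.85), with 483 to 814 CPM elsewhere. The DNA-dependent kinase Prkdc was 60.9 and 164 CPM and the receptor kinase Btk 70.4 and 209 CPM. Rag1 was 600 and 669 CPM and Rag2 52.9 and 176 CPM, both of them markers of the stage. In immature or mature B cells 4 of 11 were higher (median 0.92, background 15.5%). In pro-B and cycling B-lineage cells 1 of 11 was higher in each (medians 0.75 and 0.53), which is near the share of all genes called higher there, 8.9% and 12.4%.

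Among transcription factors of the lineage 4 of 24 were higher and 4 lower in small pre-B cells, with a median of 0.11 against 0.14 for all genes. Of all genes 16.6% were called higher there and 8.08% lower. Ikaros (Ikzf1) was 239 and 1178 CPM and Bach2 3110 and 8088 CPM, while Lef1, a factor of the pro-B stage, was 196 and 50.3 CPM and Sox4 916 and 305 CPM. Pax5 and Ebf1, which placed the cells, were 588 and 1576 CPM and 8815 and 16189 CPM. Bach2 stayed inside the range of the other libraries, 3300 to 9714 CPM, on the side of TOE, while Pax5 of TOE lay above their highest value of 1140 CPM. Ikzf1 of TOE, too, was above the 362 to 1079 CPM of the other libraries.

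Of 18 measured genes of the B cell receptor and survival list 5 were at least 2-fold lower and 3 higher in small pre-B cells, with a median of -0.33, against 8.08% of all genes called lower and 16.6% higher. The 4 receptors described next are among the lower members. The chemokine receptor Cxcr4 was 649 and 134 CPM, 4.83-fold lower (4.56 to 5.12), with 551 to 798 CPM in the other libraries. The survival receptor Tnfrsf13c was 138 and 15.0 CPM, the costimulatory receptor Cd40 123 and 30.1 CPM and the egress receptor S1pr1 106 and 18.5 CPM. All 4 were the lowest of the 8 libraries in TOE, as were 22.2% of all genes in these cells. Cd38, an ectoenzyme of the cell surface, was at the upper end of the list with 41.9 and 193 CPM. The receptor chains Cd79a and Cd79b were 2742 and 2410 CPM and 688 and 835 CPM. The largest falls in these cells were Pmepa1, a brake on TGF-beta signalling, at 212 and 5.17 CPM, the trypsinogen Try10 at 32.4 and 0.574 CPM and the membrane-rupture gene Ninj1 at 177 and 8.14 CPM.

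Immature or mature B cells shared part of this. Cxcr4 was 698 and 145 CPM, Cd83 887 and 181 CPM, Ccr7, a receptor that leads B cells to lymph nodes, 21.6 and 2.75 CPM and Cd40 192 and 54.2 CPM. Tnfrsf13c differed between the stages. It was 321 and 317 CPM here, a ratio of 0.985 (0.919 to 1.06), where in small pre-B cells it was 9.18-fold lower. The difference between the stages was not tested. The markers Ms4a1 and the complement receptor Cr2 were 487 and 941 CPM and 35.5 and 101 CPM, and the largest rises were Gys1, Iqcn and Cd200, a glycoprotein that restrains myeloid cells, at 17.0 and 130 CPM.

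The genes that placed pro-B and cycling B-lineage cells are given as a description. In pro-B cells Dntt was 321 and 580 CPM and the surrogate light chain Igll1 906 and 1156 CPM. The interleukin 7 receptor Il7r, on which early B cells depend, was 203 and 407 CPM, above the 279 to 326 CPM of the other libraries, and the factor Erg 168 and 342 CPM. Klf4 was 61.9 and 5.12 CPM, the Notch target Nrarp 165 and 17.7 CPM and lamin A (Lmna) 27.9 and 1.71 CPM, the 3 largest falls. In cycling cells the proliferation marker Mki67 was 906 and 789 CPM, Ccnb1 of mitosis 119 and 206 CPM and the replication genes Mcm2 and Pcna 105 and 69.1 CPM and 338 and 261 CPM. Their largest rises were the eosinophil granule gene Prg2 at 24.7 and 222 CPM, Hmgb2l1 and a threonine transfer RNA, and their largest falls the globin Hbb-b2, Chac1 and Ninj1.

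**Figure D4:**
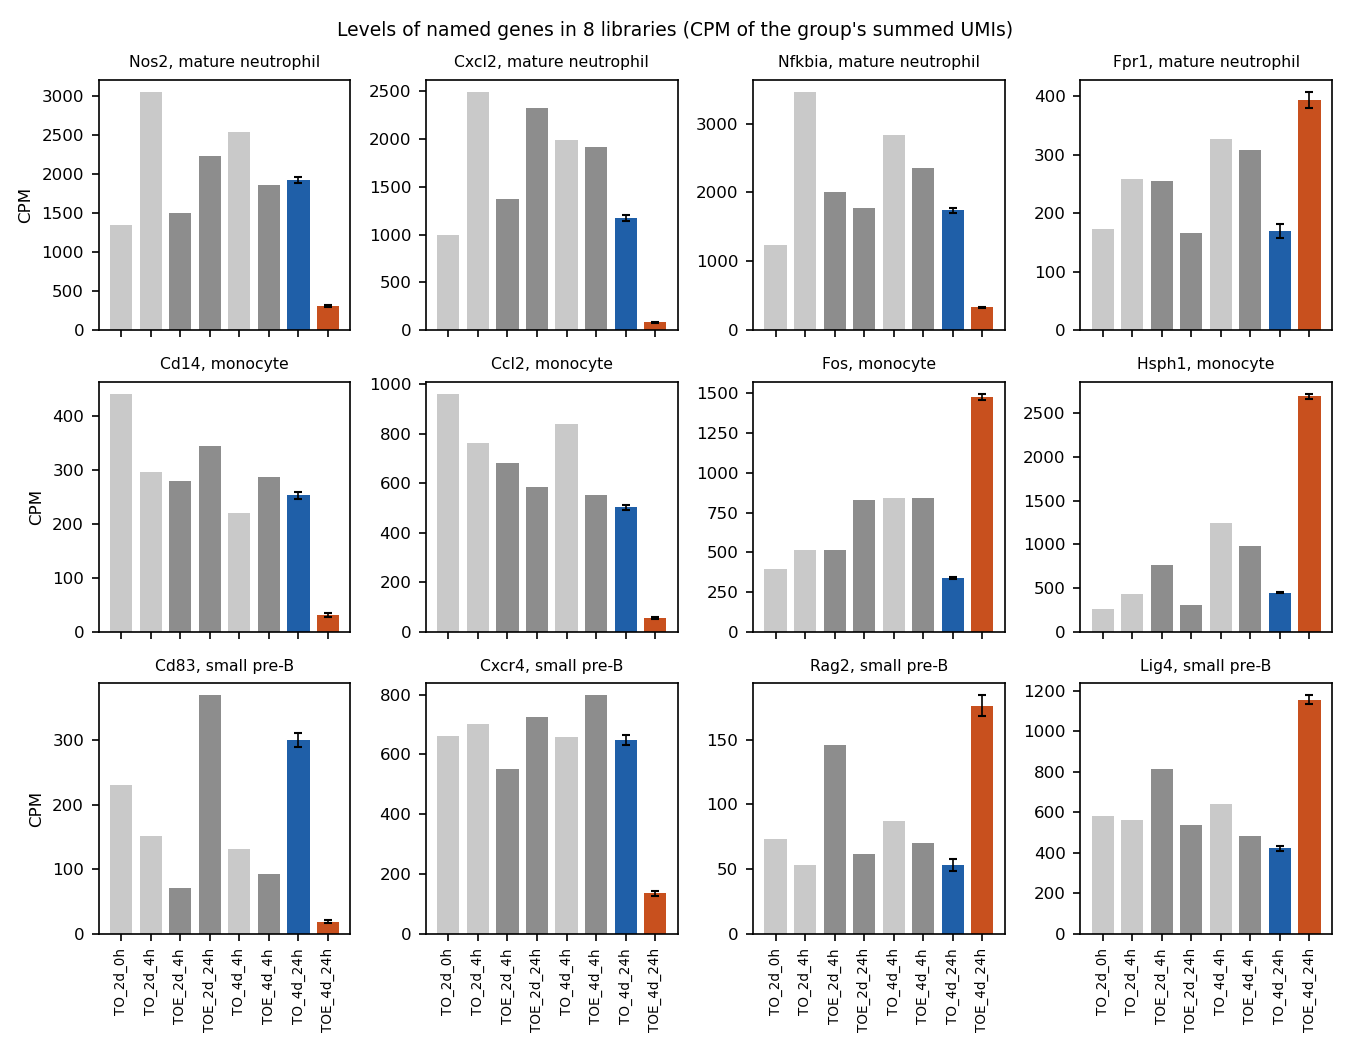
Level (CPM of the UMIs summed over a group, linear axis from 0) of 12 genes in mature neutrophils (top), monocytes (middle) and small pre-B cells (bottom) in 8 libraries, with TO blue and TOE orange 24 h after the session of day 4, bars with exact 95% intervals of the counts, and the other 6 libraries in light (TO) and dark (TOE) grey. Nos2, Cxcl2, Nfkbia, Cd14, Ccl2, Cd83 and Cxcr4 of TOE are the lowest bar of their panel, and Fpr1, Fos, Hsph1, Rag2 and Lig4 of TOE the highest.

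A set of genes differed in the same direction in every group. Of 6016 genes measured in all 9 groups, 31 were at least 2-fold higher and 21 at least 2-fold lower in TOE in each of them. The lower set held 5 genes of red cells (Hba-a1, Hba-a2, Hbb-b1, Hbb-bs and Ahsp) and, beside them, Nfkbia, Cd83, Klf4, Bcl2a1, Zc3h12a, Ccl3 and Ninj1. The higher set held the small noncoding RNAs Rn7sl1 and Rpph1, 5 transfer RNA genes, the DNA damage kinase Atm and the factors Pax5 and Bcl11a. Rn7sl1, the RNA of the signal recognition particle, was 17.9 and 222 CPM in monocytes and at most 41.5 CPM in the other libraries. Pax5 was 49.3 and 142 CPM in mature neutrophils, which do not use it.

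How far TO and TOE lay apart can be set beside the distance between other libraries. The median absolute log2 ratio over genes between TO and TOE was 0.30 to 0.56 in the 9 groups. TO was closer to TO at 0 h of day 2 and to TOE at 24 h of day 2, with 0.16 to 0.32, and about as far from the other 4 libraries, with 0.36 to 0.54. TOE was 0.29 to 0.63 from the other 6 libraries. A distance of that size also separated TO from TO libraries of other times.

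The ratio was higher for longer genes. The genes measured in a group were ordered by their span in the genome, known from RefSeq on GRCr8 for 93.2% to 97.6% of them, and cut into 4 classes of equal size. The median log2 ratio of TOE over TO was higher in each longer class in all 9 groups. In mature neutrophils it was 0.59 in the class of longest genes, and in monocytes it went from 0.04 in the shortest to 0.23 in the longest. Over the 9 groups the median of the shortest class lay between -0.26 in defensin precursors and 0.04 in monocytes. Long genes named above, such as Dlgap2, Skap1, Ebf1, Bach2 and Pax5, belong to this trend. Its part in their values, and in the values of the genes that were lower, was not tested.

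**Figure D5:**
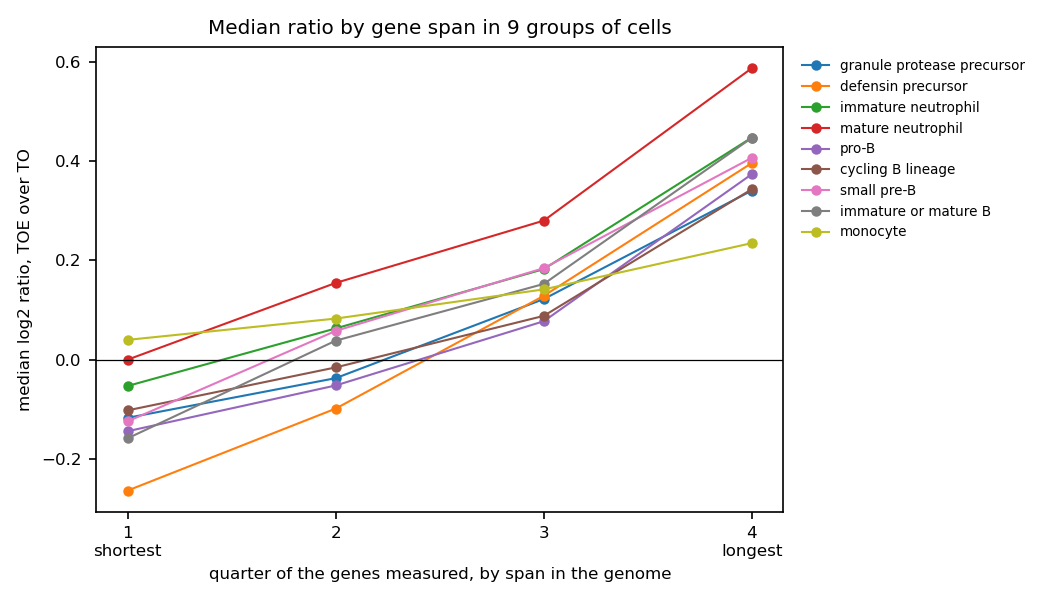
Median log2 ratio of TOE over TO (vertical) in 4 classes of the genes measured, ordered by their span in the genome from shortest to longest (horizontal), in 9 groups of cells. Each line rises, and the class of longest genes reaches between 0.23 in monocytes and 0.59 in mature neutrophils.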

How the data were processed

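Tissue of rat tibial osteotomy sites was profiled by droplet single-cell RNA sequencing. The authors deposited raw UMI counts for 41801 genes per cell, made with Cell Ranger 9.0.0 per the labels and not normalized. The submitters' processing notes list the builds mRatBN7.2 and GRCh38 without a role. TO at 24 h of day 2 was not analysed here. Each library had 1 sample, so no test across samples was run.

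The 129 markers that define groups were summed per cell. For each class up to 50 cells of TO and up to 50 of TOE, those with the highest marker score, gave a profile. These profiles, fitted to this pair alone, also placed the cells of the other 6 libraries. Each cell joined the class of highest multinomial likelihood if at least 3 of its markers were found. B-lineage stages followed from Dntt and Igll1, from at least 3 cycling markers, and from Rag1 and Rag2 against mature markers. UMIs were summed per group and library, scaled to CPM and compared as log2 ratios with a prior of 0.5 UMI. Genes with at least 50 UMIs over the pair counted as measured, and the markers of a group's own lineage were left out of its lists. Ratios and shares carry exact 95% intervals (conditional binomial, Poisson and Clopper-Pearson) that cover counting error only. Doublets were kept. Scrublet scores over 0.25 marked 2.72% of TO and 3.24% of TOE cells, and their removal was an alternative, as were other cell filters, thinning to 2000 UMIs a cell (12341 and 11062 cells deep enough), Leiden clusters (scanpy 1.11.5, resolution 1), other UMI minimums, centring, a mean over cells and a prior of 2 UMIs. Counts were also simulated with counting error alone. The changed genes lay well above the UMI minimum and were changed by more than the 2-fold cut, settings that favour recovery. Of these changed genes 199 of 200 were recovered in granule protease precursors and 200 of 200 in small pre-B cells and in monocytes. The intervals held the true ratio for 96.15%, 95.23% and 93.3% of the genes in these groups. Such counts hold no difference between animals or libraries, so the recovery cannot tell how far those differences enter the called genes.

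The members and gene lists were chosen with earlier results of these data known. Named genes were, per group, the 3 rises and 3 falls with the most extreme interval bound among genes found in at least 10% of cells, the markers, the extremes of each list and genes the study names. The other genes given as examples or plotted were chosen after their values were seen. Gene spans and promoter windows came from RefSeq on GRCr8.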

Additional observations from a re-analysis of the deposited data

Results flagged for a closer look

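The ratio of cell shares, TOE over TO, lay on the other side of 1 at 24 h of day 4 than in another pair of libraries for 6 groups, with intervals on both sides that leave out 1. The difference between pairs was not tested, since each pair holds 1 library a side.

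Immature neutrophils had a ratio of 2.46 at 24 h of day 4, and of 0.771 (0.693 to 0.859) at 4 h of day 4 and 0.674 (0.598 to 0.760) at 4 h of day 2. Mature neutrophils had 1.48, against 0.432 (0.382 to 0.488) and 0.453 (0.399 to 0.512). Defensin precursors had 1.86, against 0.660 (0.550 to 0.791) at 4 h of day 4. Granule protease precursors had 0.735, against 1.56 (1.22 to 2.01) at 4 h of day 2, but 0.853 (0.665 to 1.09) after thinning to 2000 UMIs a cell, and 0.683 (0.503 to 0.924) at 4 h of day 4. Cycling B-lineage cells had 1.28, against 0.774 (0.720 to 0.832) at 4 h of day 4, but 1.80 (1.69 to 1.92) at 4 h of day 2. Monocytes had 0.603, against 1.71 (1.61 to 1.82) at 4 h of day 4, but 0.857 (0.803 to 0.914) at 4 h of day 2.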

How the results depend on the processing

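No paired analysis was possible because each condition had 1 library. None of 70 alternative share ratios changed side for a group whose interval left out 1, 15 of the 70 moved beyond the main interval, and the causes were not tested. Thinning gave 0.853 (0.665 to 1.09) for granule protease precursors, an interval that includes 1. The monocyte ratio became 0.538 with the stricter cell filter, 0.543 after thinning and 0.683 with Leiden clusters. Thinning gave 1.28 for pro-B, 1.45 for cycling B-lineage and 1.03 for immature or mature B cells. Leiden clusters gave 2.63 for defensin precursors, 2.13 for immature neutrophils, 1.11 for small pre-B and 0.777 for immature or mature B cells, whose interval then left out 1. Requiring 4 markers gave 1.64 for mature neutrophils. Shares over placed cells other than erythroid gave 1.35 for mature neutrophils, 1.17 for cycling B-lineage, 1.25 for small pre-B and 0.861 for immature or mature B cells, whose interval again left out 1.

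Counts of called genes moved past 1.5-fold mostly with the UMI minimum, which sets how many genes are measured. With at least 20 UMIs they were 1121 in granule protease precursors, 1448 in defensin precursors and 1959 in pro-B cells. With at least 200 UMIs they were 116, 223 and 528 in those groups, 872 in immature and 1226 in mature neutrophils, 1495 in cycling B-lineage, 1734 in small pre-B, 1248 in immature or mature B cells and 1136 in monocytes. The mean over cells gave 1262 in granule protease precursors. Of 441 alternative list medians 14 changed sign. For 2 of these the main median was a ratio of at least 1.5-fold, both in granule protease precursors, where MHC class II was 0.16 with at least 200 UMIs and immediate-early genes were -0.062 with the mean over cells. For 12 the median was nearer to 0, and 10 of those were interferon-stimulated genes. The others were immediate-early genes in defensin precursors (0.09) and G2 and M genes in immature or mature B cells (-0.99 over 4 genes), both with at least 200 UMIs. The number of cells, 18 in TOE, limits the macrophage values.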
